A study of Homo sapiens with 12 samples.

Results

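The unsilenced state of MDA-MB-231 cells is described here from the arrays of cells that received a control LNA: 6 of the 12 arrays in the series, chosen by the LNA type in the labels and not by any measured value. MDA-MB-231 is an established human breast cancer line of the triple-negative class, which is defined by the lack of oestrogen receptor and progesterone receptor and of amplified ERBB2. All 6 samples were transfected with 30 nM of a control locked nucleic acid (LNA) gapmer and 5 μl of a lipid reagent, with 300000 cells in 2 ml, and total RNA was taken after 24 h, so the cells are transfected rather than untouched. The labels put replicates 1 to 3 in batch 2 and replicates 4 to 6 in batch 1, and whether each replicate was its own culture is not stated, so any test measures only the spread between these samples. The other 6 arrays, from cells given an LNA against the long noncoding RNA CYTOR, were not used.

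Breast epithelium has luminal cells, which carry simple keratins, E-cadherin and tight junctions, and basal or myoepithelial cells, which carry stratified keratins and contractile proteins. Some triple-negative lines have lost most epithelial junction genes and express genes typical of mesenchymal cells, such as the intermediate filament vimentin, a pattern often called claudin-low or mesenchymal-like. MDA-MB-231 is known as such a line and carries activating mutations in the RAS pathway, a mutant p53 and a deletion of CDKN2A.

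A level here is the deposited log2 value of the brightest probe that the platform annotation ties to a gene. Different probes respond differently to the same amount of RNA, so levels and ranks of different genes are array signals set side by side, not molecule numbers. In all 47323 probes had a value and 20039 genes had a named probe. Array medians lay between 6.529 and 6.531, values ran from 6.08 to 13.6, and the 15 pairs of arrays had correlations of 0.997 to 0.998 over all probes, in which the probe differences that all arrays share take part. No detection p-values were used, so a background ceiling was set on each array as the 95th percentile of 371 olfactory receptor genes, a family a breast line is not known to use. The ceilings lay between 6.58 and 6.60, on average 0.058 above the array median. A gene was counted as above background when it passed the ceiling on all 6 arrays, and is called at background otherwise, also where it passed on some. This held for 9987 genes (49.8% of 20039), while 7228 passed on no array and 2824 on some. The genes just inside this rule, AKNAD1, FBXO16 and ZKSCAN5, averaged 6.65, 6.63 and 6.64, and those just outside, FRA10AC1, SPDYE1 and JAK2, averaged 6.63, 6.65 and 6.64. The number of arrays limits the precision.

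Vimentin and CD44 were among the brightest genes, and E-cadherin and oestrogen receptor alpha gave no signal above background. VIM, which encodes the intermediate filament of mesenchymal cells, ranged from 13.30 to 13.40 over the 6 arrays with a median of 13.31. It averaged 13.33 ± 0.04 (SD, n = 6), 6.80 above the array median, and ranked 25 of 20039 genes, between 11 and 31 on single arrays. CD44, the hyaluronan receptor, ranged from 11.90 to 12.20 with a median of 12.06 and averaged 12.06 ± 0.12, rank 215. Both genes were high on every array. CDH1, which encodes E-cadherin of epithelial adherens junctions, ranged from 6.47 to 6.59 with a median of 6.50 and passed the ceiling on 0 of 6 arrays. ESR1, the oestrogen receptor alpha gene, ranged from 6.39 to 6.57 with a median of 6.47 and also passed on 0 of 6. Their means, 6.52 ± 0.04 for CDH1 and 6.47 ± 0.06 for ESR1 (SD, n = 6), lay 0.01 and 0.06 below the array median. For each of these genes there was 1 named probe, so a probe that does not work would look the same.

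**Figure D1:**
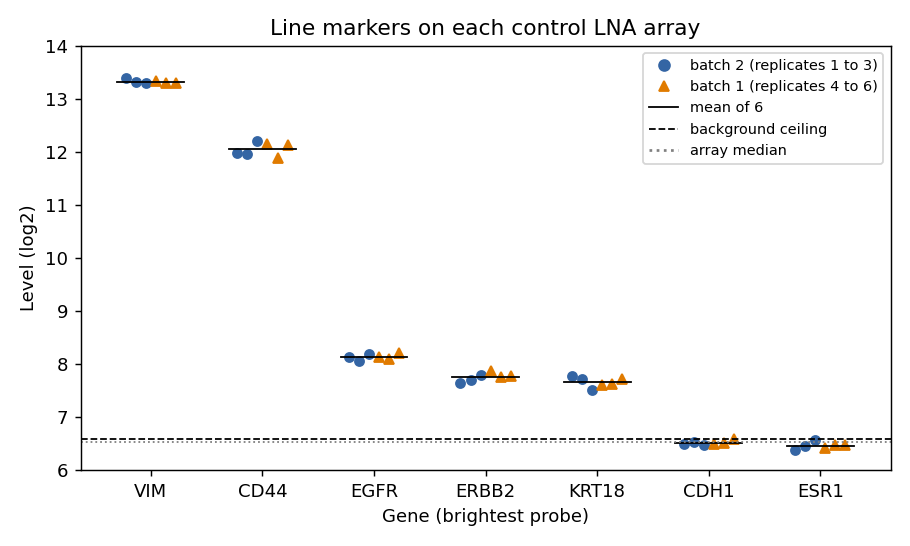
Levels (log2, vertical axis) of the brightest probe of the 7 line markers on each of the 6 control LNA arrays, with circles for batch 2, triangles for batch 1 and a line at the mean. The dashed line is the mean background ceiling and the dotted line the mean array median. VIM lies between 13.30 and 13.40 and CD44 between 11.90 and 12.20, while all CDH1 and ESR1 values lie at or below the ceiling of their array.

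EGFR, ERBB2 and the simple keratin gene KRT18 lay between these extremes. EGFR, the epidermal growth factor receptor, ranged from 8.06 to 8.21 with a median of 8.14, averaged 8.14 ± 0.06 and ranked 4380. ERBB2, its partner receptor without a known ligand, ranged from 7.64 to 7.86 with a median of 7.77, averaged 7.76 ± 0.08 and ranked 5316. KRT18 ranged from 7.52 to 7.77 with a median of 7.67, averaged 7.66 ± 0.09 and ranked 5591. All 3 were above background on every array, at 1.61, 1.23 and 1.13 above the array median. The label triple-negative concerns ERBB2 amplification and protein, which an array signal does not give, and the ERBB2 signal here was not absent. Each of these readings rests on 1 bright probe. The other 3 EGFR probes averaged 6.43 to 6.60, the other 2 ERBB2 probes 6.45 and 6.50, and the other KRT18 probe 6.58. CD44 had 9.22 and 6.57 at its other probes, and VIM had 12.88 at its second. The labelled line was thus read through VIM as bright at both probes and through CDH1 and ESR1 as at background. CD44, bright at its brightest probe, and the middle markers depended on the probe.

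**Figure D2:**
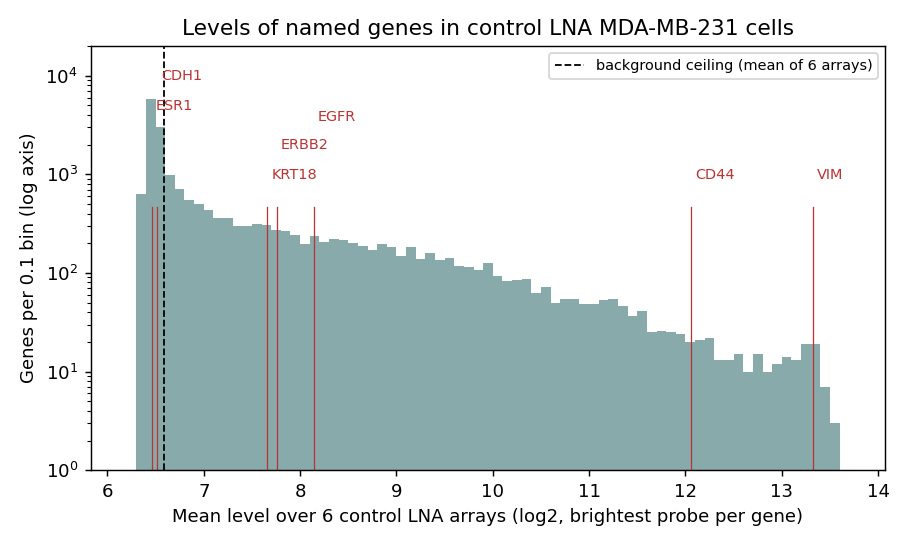
Number of the 20039 named genes (vertical log axis, bins of 0.1) by mean level over the 6 arrays (horizontal axis, log2). Thin lines mark the 7 line markers and the dashed line the mean background ceiling. CDH1 and ESR1 sit in the background peak, and VIM sits at the bright end of the distribution.

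Of the hormone and ERBB receptors, 3 of 8 genes with a named probe were above background: EGFR, ERBB2 and GPER1, a membrane oestrogen receptor, at 7.04 ± 0.05. PGR, the progesterone receptor gene, averaged 6.58 ± 0.06, ranged from 6.49 to 6.65 and passed the ceiling on 3 of 6 arrays, so its signal was at the border of background. ERBB3, a receptor of neuregulins, averaged 6.56 and passed on 1 of 6. ESR2, oestrogen receptor beta, averaged 6.51 and ERBB4 averaged 6.36, and neither passed on any array. The share of this list above background was 37.5%, against 49.8% of all genes.

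Among luminal epithelial markers, 12 of 29 were above background (41.4%, against 49.8% of all genes). Besides CDH1, the genes at background included CLDN3 (6.49) and CLDN4 (6.63, above on 4 of 6 arrays) of tight junctions, the splicing regulators ESRP1 (6.48) and ESRP2 (6.44), the transcription factor genes GATA3 (6.55), FOXA1 (6.50), GRHL2 (6.52), OVOL1 (6.46) and SPDEF (6.47), the protease gene ST14 (6.47) and TFF1 (6.46), an oestrogen-induced secreted peptide gene. Its relative TFF3 passed at 7.47 ± 0.05. CA12 (7.18) and AGR2 (7.04) of the list also passed, with 6.58 and 6.53 at their other probes. The simple keratin genes KRT8 (8.78 ± 0.12), KRT7 (8.21), KRT18 and KRT19 (7.33) were above background, as were EPCAM, an epithelial adhesion molecule, and CLDN7. EPCAM averaged 7.98 ± 0.06 and its other probes 7.39 and 7.05, all above the mean ceiling. The brightest of the list were MLPH, a melanosome transport adaptor, at 10.15 ± 0.03 and XBP1, a transcription factor of secretory cells, at 9.89 ± 0.03, with 9.81 at its second probe. These genes are luminal in the breast but are also used elsewhere. TJP3 had no named probe and was not analysed here.

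Of basal and myoepithelial markers 10 of 17 were above background (58.8%, against 49.8% of all genes). CAV1, the main protein of caveolae, averaged 12.36 ± 0.10 (range 12.17 to 12.43) and ranked 155, and CAV2 averaged 9.23. The hemidesmosome integrin genes ITGA6 (8.65) and ITGB4 (7.58), the laminin chain gene LAMB3 (8.12) and SFN (8.34), the 14-3-3 sigma gene, were above background. The stratified keratin genes KRT5 (6.43), KRT14 (6.47), KRT15 (6.49) and KRT16 (6.50) were not, nor were DSG3 (6.43), a desmosomal cadherin, and CNN1 (6.41), calponin of contractile cells. Other contractile genes of the list did pass: ACTA2, smooth muscle actin, averaged 7.52 ± 0.07 and MYLK, myosin light chain kinase, 7.29 ± 0.03, with 6.77 at its second probe. The other 7 listed genes had no named probe, TP63 and KRT17 among them, and were not analysed here. Over all 20 keratin genes with a named probe, 6 passed (30.0%, against 49.8% of all genes): KRT80 (9.48), KRT10 (9.45), KRT8, KRT7, KRT18 and KRT19.

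Of mesenchymal markers 18 of 30 were above background (60%, against 49.8% of all genes) and 8 lay above a level of 10. After VIM and CD44 came AXL, a receptor tyrosine kinase, at 11.68 ± 0.15 (range 11.51 to 11.90, 10.94 at its second probe), MSN, the membrane linker moesin (10.97), TGFBI, a secreted matrix protein (10.82), the transcription factor gene ETS1 (10.44), TGFBR2, the type II TGF-beta receptor (10.43), and CDH11, a cadherin of mesenchymal cells (10.07 ± 0.10). Of the transcription factors that repress E-cadherin, SNAI2 was the clear signal at 9.35 ± 0.13, with 8.30 at its second probe. ZEB2 averaged 6.94 at 1 probe and 6.46 at the other. ZEB1 averaged 6.58, SNAI1 6.40, TWIST1 6.44 and TWIST2 6.46, and none of these 4 passed. Each of the 4 was read at only 1 named probe, and ZEB1 lay close to the ceiling. Not every matrix or mesenchymal gene was bright: FN1 (6.55), SPARC (6.43), FBN1 (6.53), CDH2 (6.48), LOXL2 (6.42) and TGFB1 (6.43) were at background, of which FN1 had 3 probes and all averaged 6.46 to 6.55. The medians of the mesenchymal, basal and luminal lists were 6.89, 7.22 and 6.61, against 6.65 over all genes.

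**Figure D3:**
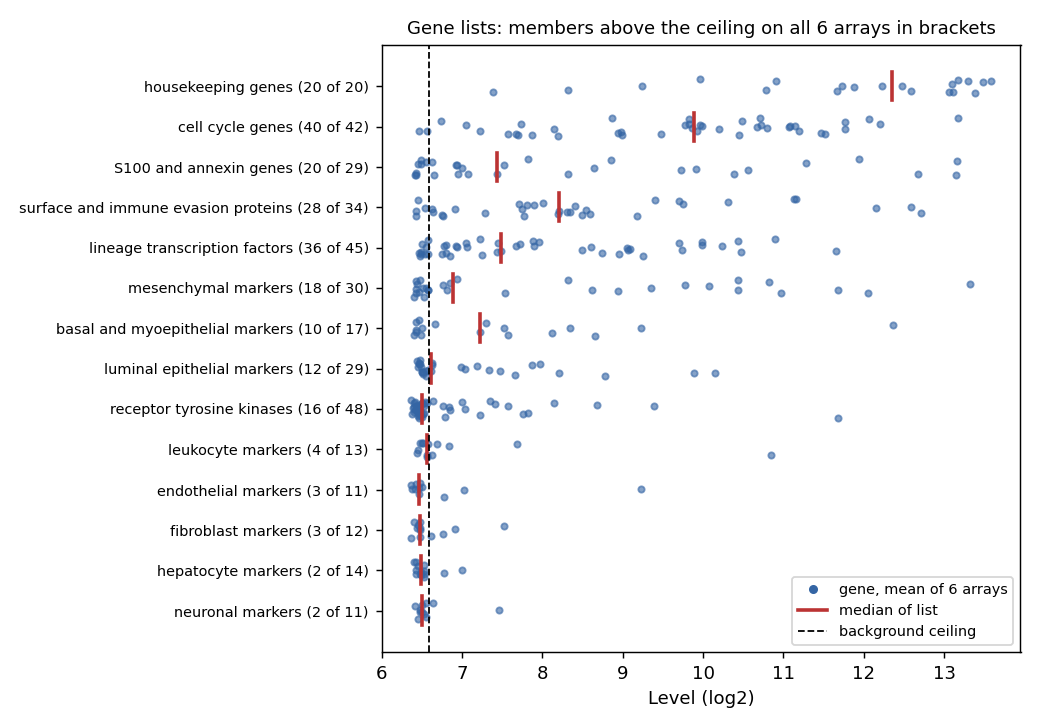
Levels (log2, horizontal axis) of the members of 14 gene lists, each point the mean of 1 gene over the 6 arrays with random vertical jitter, and a red bar at the list's median. Counts in brackets are members above the ceiling on all 6 arrays of those with a named probe. Housekeeping and cell cycle lists lie to the right with medians of 12.35 and 9.89. Lists of other cell types have medians of 6.46 to 6.57, under the ceiling, with some members above it.

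On a wider list of junction genes 16 of 35 were above background (45.7%, against 49.8% of all genes). CTNNA1, alpha-catenin, averaged 10.56 and CTNNB1, beta-catenin, 7.85. Further CTNNB1 probes averaged 7.73 and 7.38, and its others 6.38 to 6.54. CTNND1, another catenin gene, averaged 6.56 at the brightest of its probes and did not pass. The classical cadherin genes CDH1, CDH2 and CDH3 (6.61, above on 4 of 6 arrays) were at background, while CDH11, described above at 10.07, and the desmosomal cadherin DSG2 at 10.01 were bright. DSG2's other probe averaged 7.04. The desmosomal genes DSC2 and PKP2 averaged 7.50 and 7.13. The tight junction scaffold TJP1 averaged 8.59, while occludin, OCLN, was at 6.43. Of the claudins, CLDN12 (8.52), CLDN23 (7.92), CLDN7 (7.87), CLDN11 (7.55) and CLDN15 (6.90) passed, and CLDN1, CLDN2, CLDN3, CLDN4, CLDN5, CLDN6, CLDN8, CLDN9, CLDN10, CLDN16 and CLDN18 did not. The gap junction genes GJA1 (8.84) and GJB2 (8.53) passed.

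Surface genes used to mark breast stem and progenitor cells included bright and dark members. ITGB1 (12.53 ± 0.08), CD44, NT5E (the ectonucleotidase CD73, 10.93 ± 0.10) and ALCAM (10.39) were high. CD24, whose low protein level together with high CD44 marks stem-like breast cancer cells, averaged 9.78 ± 0.11 at its brightest probe (range 9.62 to 9.94) and 6.79 at the other. Both CD24 probes were above the mean ceiling, but they differed by more than the spread over arrays of either. ALDH1A3 (8.10) passed and ALDH1A1 (6.51) did not, and PROM1 (6.42), LGR5 (6.49), NGFR (6.46) and THY1 (6.36) were at background. In total 9 of 17 passed (52.9%, against 49.8% of all genes).

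Receptor tyrosine kinases were mostly at background, with 16 of 48 above it (33.3%, against 49.8% of all genes). AXL was by far the brightest, followed by RYK, a Wnt co-receptor (9.39), and MET, the hepatocyte growth factor receptor (8.67 ± 0.13). EGFR, the ephrin receptor genes EPHA2 (7.82), EPHB4 (7.57) and EPHA4 (7.35), ERBB2, PTK7 (7.42) and the AXL relatives MERTK (7.22) and TYRO3 (7.0) followed. IGF1R (6.47), INSR (6.54), FGFR1 (6.46), FGFR2 (6.39), FGFR4 (6.47), KIT (6.44) and PDGFRA (6.40) did not pass. By contrast FGFR3 passed at 6.85, with 6.68 at its other probe, as did ROR1 (7.03) and DDR1 (6.78). IGF1R and INSR are known as broadly expressed receptors, and IGF1R had 1 named probe.

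Integrins were led by ITGB1, the common beta subunit. ITGAE (10.38), ITGB5 (9.33), ITGA3 (9.31), ITGB2 (9.28) and ITGAV (8.93) followed, and 12 of 26 subunits passed (46.2%, against 49.8% of all genes). ITGB2 and ITGAE are best known from leukocytes, whereas their partners ITGAL (6.44), ITGAM (6.58), ITGAX (6.41) and ITGAD (6.39) were at background and ITGB7, the partner of ITGAE, averaged 6.76. ITGB3 (6.50), ITGB6 (6.36) and ITGB8 (6.45) did not pass.

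Of proteases and their inhibitors 21 of 29 were above background (72.4%, against 49.8% of all genes), and 5 lay above a level of 10. TIMP1, a secreted metalloproteinase inhibitor, averaged 12.15 ± 0.11 (range 12.04 to 12.33). SERPINE2, protease nexin, averaged 11.26, the lysosomal protease gene CTSL 11.10, TIMP2 10.59 and PLAU, urokinase, 10.22, with its receptor PLAUR at 8.71. Of the matrix metalloproteinases, MMP1, the interstitial collagenase, averaged 8.13 and MMP14, a membrane-bound activator, 6.85. MMP2 (6.42), MMP7 (6.43), MMP9 (6.50) and MMP13 (6.49) were at background.

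Secreted factors were led by MIF, macrophage migration inhibitory factor, at 12.15 ± 0.05, and by the YAP targets CCN2 (11.20 ± 0.09) and CCN1 (11.05 ± 0.14). VEGFB (10.35), the Wnt inhibitor gene DKK1 (10.25) and IL11, a cytokine linked to bone metastasis of this line, (9.66 ± 0.05) came next. CXCL8, interleukin-8, averaged 8.70 ± 0.05 with 7.53 at its second probe. The EGFR ligand genes TGFA (8.89) and HBEGF (8.31) passed, EREG (6.59) did not, and NRG1, a ligand of ERBB3 and ERBB4, averaged 7.98. IL6 averaged 7.74. CXCL2, CXCL3 and CXCL5 (6.54, 6.52 and 6.48), IL1A (6.61) and IL1B (6.55), and TNF (6.42) were at background. In total 28 of 47 passed (59.6%, against 49.8% of all genes).

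Of surface and immune evasion genes 28 of 34 passed (82.4%, against 49.8% of all genes). The tetraspanin genes CD81 (12.72 ± 0.07) and CD151 (12.15), the class I light chain B2M (12.59 ± 0.08), the transferrin receptor TFRC (11.16) and SLC2A1, the glucose transporter GLUT1 (11.13), were the brightest. The class I heavy chain genes read lower at their probes, HLA-E at 8.55, HLA-B at 8.40 and HLA-C at 6.76. These genes are close copies that vary between people, and which alleles a probe fits was not tested. The peptide transporter genes TAP1 (9.18) and TAP2 (8.01) passed. CD274 (6.45), which encodes PD-L1, and PDCD1LG2 (6.43) were at background, and CD276 averaged 7.71. HLA-DRA, of class II, averaged 7.28.

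Transcription factors of the list passed in 36 of 45 cases (80.0%, against 49.8% of all genes). JUND of the AP-1 family averaged 11.65 ± 0.11, CEBPB 10.90, HMGA1 10.47, KLF6 10.24, HIF1A 9.99 and NFKB1 9.99. YAP1, the Hippo pathway coactivator, averaged 9.74, and its DNA-binding partners TEAD2 (9.25) and TEAD4 (9.05) were brighter than TEAD3 (7.05) and TEAD1 (6.58), the last of which did not pass. FOSL1, an AP-1 member linked to invasive lines, averaged 7.89 ± 0.04. TFAP2C, a luminal factor gene, averaged 9.71 and SOX9 9.06. SOX2 (6.48), SOX10 (6.49) and TCF4 (6.49) were at background with ESR1, FOXA1 and GATA3.

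Of 23 RAS pathway and driver genes with a named probe 19 passed (82.6%, against 49.8% of all genes). PHLDA1 averaged 11.29, SPRY2 10.26, ETV5 9.05, DUSP6 8.84, SPRY4 7.80 and DUSP4 7.01. MAP2K1, which encodes MEK1, averaged 9.64, HRAS 9.35, MYC 9.30, ARAF 9.12 and MAPK3, the ERK1 gene, 8.84. MDM2 (6.60), NF1 (6.53), NF2 (6.52) and AKT2 (6.48) did not pass. The other 10 listed genes had no named probe and were not analysed here.

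The cell cycle list passed in 40 of 42 cases (95.2%, against 49.8% of all genes), with a median of 9.89, against 6.65 over all genes. Its brightest member, not spelled out here, averaged 13.17 and ranked 51. CKS2 averaged 12.20, CKS1B 12.06, the mitotic activator CDC20 11.77, UBE2C 11.76, RRM1 11.52, CCND1 (cyclin D1) 11.46 ± 0.07 and AURKA 11.19. CDK4 averaged 10.48 and RB1 7.68, with the inhibitors CDKN1B at 8.99 and CDKN1A at 8.94. The exceptions were CCNE2 (6.47) and MKI67 (6.56 ± 0.09), the gene of the proliferation antigen Ki-67. MKI67 passed the ceiling on 2 of 6 arrays at its only named probe, while TOP2A (10.71), CDK1 (10.79) and TYMS (11.08), also cell cycle genes, were bright.

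CDKN2A, which encodes the cell cycle inhibitor p16 and the p53 activator ARF, lay in a row of genes at background. CDKN2A averaged 6.47 ± 0.04 (range 6.44 to 6.54) at the brightest of 3 probes and passed on 0 of 6 arrays. Its neighbours CDKN2B, a related inhibitor gene (6.51 ± 0.06, 3 probes), MTAP, an enzyme of methionine salvage (6.52 ± 0.06), DMRTA1 (6.44) and ELAVL2 (6.45), and further off KLHL9 (6.40) and the interferon genes IFNE (6.52), IFNA1 (6.47), IFNA2 (6.45) and IFNB1 (6.38), were not above background either. In gene order by the RefSeq table (assembly GRCh38.p14), 22 protein-coding genes in a row between HACD4 and TUSC1 did not pass, with levels of 6.36 to 6.55. Of these, 16 are interferon genes, which most cells leave silent, and 6 are not. The flanking genes HACD4, a fatty acid chain enzyme, at 9.47 ± 0.07 (range 9.39 to 9.57) and TUSC1 at 7.33 passed, while FOCAD, next to HACD4 on the other side, averaged 6.47. Of the 12 genes listed for this locus, 1 passed (8.33%, against 49.8% of all genes). Runs of at least 22 such genes occurred 9 times, this row included, among 3741 runs over 17396 protein-coding genes. Genes whose symbol begins with OR were left out, which takes out the olfactory receptors and any other gene so named. Rows of this length thus also occurred elsewhere. MTAP is known as a gene that most cell types express. The row around the listed genes was drawn out after its values were seen. Whether the loss of DNA known for this line accounts for these levels was not tested.

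**Figure D4:**
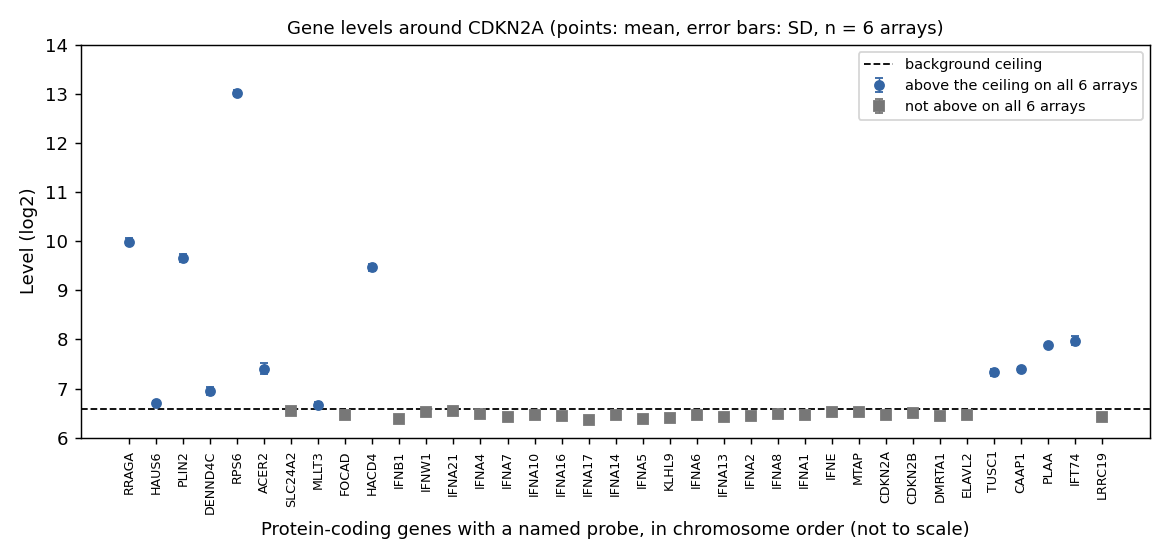
Mean levels (log2, vertical axis, error bars SD, n = 6 arrays) of protein-coding genes with a named probe around CDKN2A, in chromosome order and not to scale. Blue circles passed the ceiling on all 6 arrays and grey squares did not. The 22 genes from IFNB1 to ELAVL2 lie between 6.36 and 6.55, and HACD4 and TUSC1 on either side lie at 9.47 and 7.33.

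Many of the brightest genes encode parts of the ribosome. EEF1A1, the elongation factor that brings tRNA to the ribosome, was first at 13.59 ± 0.03, followed by RPL41 (13.54), TMSB4X, the actin-binding thymosin beta-4 (13.54 ± 0.04), TPT1 (13.49), the iron store FTL (13.48) and TXN, thioredoxin (13.47). Of the 30 brightest genes 12 were ribosomal protein genes, and of the 100 brightest 42 were. LDHA (13.39), UBB (13.37), EIF4A1 (13.34), PFN1 (13.34), OAZ1 (13.33), TUBA1A (13.30) and ACTG1 (13.30) were also among the first 30, with VIM. ACTB averaged 13.12 ± 0.02 and GAPDH 13.10 ± 0.06. Over all 77 ribosomal protein genes with a named probe, 72 passed (93.5%, against 49.8% of all genes) and the median was 12.94. The brightest 30 genes spanned only 13.30 to 13.59, near the largest value in the table, and neighbours in this order differed by less than the smaller of their SDs over arrays, except EEF1A1 from RPL41 and TMSB4X from TPT1. F2R, the thrombin receptor PAR1, was also among them at 13.33 ± 0.08 (range 13.18 to 13.43), with 7.51 at its other probe.

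Ribosomal protein, EEF1A1 and TPT1 mRNAs are known to begin with a 5′ terminal oligopyrimidine tract, a C followed by more C or T, through which the mTOR pathway controls their translation. The windows shown here, 15 bases before to 15 bases after the annotated transcript start, show this for genes from the bright end, with the tract in capitals. The last 6 have none by the rule given next, among them the ribosomal protein genes RPS29 (13.44), RPL32 (13.37) and RPL6 (13.36). They were taken from RefSeq promoters (GRCh38.p14), read 5′ to 3′ on the gene's strand. The tract searched was an unbroken run of at least 6 C or T that begins with a C within 5 bases of the start, on the gene's strand only. This rule was loosened after the EEF1A1 window was seen: in its first form the tract could not be preceded by C or T, which leaves EEF1A1 out.
EEF1A1 (chr6:73521018-73521047, minus strand): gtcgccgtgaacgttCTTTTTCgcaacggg
RPL41 (chr12:56116618-56116647, plus strand): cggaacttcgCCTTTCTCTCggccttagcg
TPT1 (chr13:45341169-45341198, minus strand): agcggctgagtcggCCTTTTCCgcccgctc
RPS12 (chr6:132814554-132814583, plus strand): gcgtgcggatgaggCCTCTTTCCCTgccgc
RPS25 (chr11:119018329-119018358, minus strand): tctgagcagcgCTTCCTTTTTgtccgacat
RPS27 (chr1:153990747-153990776, plus strand): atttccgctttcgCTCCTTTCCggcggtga
RPLP2 (chr11:809952-809981, plus strand): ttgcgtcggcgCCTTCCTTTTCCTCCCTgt
RPS29 (chr14:49598696-49598725, minus strand): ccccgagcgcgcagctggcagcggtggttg
RPL32 (chr3:12841551-12841580, minus strand): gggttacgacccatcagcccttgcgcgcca
RPL6 (chr12:112411428-112411457, minus strand): tatttgtatcctcagtgaatcagaaccaga
TMSB4X (chrX:12975095-12975124, plus strand): cgcaccccgcccgacaactcggtggtggcc
LDHA (chr11:18394548-18394577, plus strand): cgcgcccagctcagagtgctgcagccgctg
VIM (chr10:17228226-17228255, plus strand): gtgcaatcgtgatctgggaggcccacgtat

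Such a tract stood at the start of 46 of 65 ribosomal protein genes with a promoter sequence (70.8%). Of the 100 brightest genes of any kind, 76 had a promoter sequence, and 31 of these had the tract (40.8%). Of all 15034 named genes with a promoter, 1708 had it (11.4%). Of genes above background 12.3% had it and of genes not above background 10.3%. In the first form of the rule the share was 41.5% for ribosomal protein genes (27 of 65). It was 25.0% for the 76 genes of any kind among the 100 brightest and 7.53% for all 15034. A start site annotated a few bases away would be missed, and a match is a description of letters, not of use. Promoter composition also differed between genes above and not above background. From 250 bases before to 50 after the start, the median ratio of observed to expected CG pairs was 0.85 for the 8173 genes above background, 0.49 for the 6861 not above it and 0.12 for 294 olfactory receptor genes, and the median GC share was 65.3%, 58.7% and 37.7%. The letters TATAAA, 40 to 15 bases before the start, were in 1.68% of promoters above background and 5.76% of those not above it, and in 3.54% of all. These are shares over genes, given as a description.

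S100 and annexin genes, families of mostly calcium-binding proteins, were bright in part, and 20 of 29 passed (69.0%, against 49.8% of all genes). S100A10 averaged 13.17 and its partner ANXA2 13.15, S100A6 12.67, ANXA1 11.94 and ANXA5 11.28. S100A4, a gene linked to metastasis, averaged 8.32 ± 0.12. S100A7, S100A8, S100A9 and S100A12 (6.48, 6.55, 6.49 and 6.42), of inflamed skin and myeloid cells, were at background.

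Of long noncoding RNAs 14 of 20 passed (70.0%, against 49.8% of all genes). SNHG5 averaged 12.31, SNHG6 11.09, ZFAS1 11.09 and TUG1 10.00. UCA1 averaged 8.05, and CYTOR, the target of the study's other LNA, averaged 7.83 ± 0.12 (range 7.72 to 8.0) and ranked 5100. MALAT1 (6.46 ± 0.05) and GAS5 (6.47 ± 0.03) were at background at their only named probes, although both RNAs are known as abundant in most cultured cells. Likewise PPIA, a housekeeping gene, averaged only 7.38. Values at background are therefore those of a probe and do not show that a gene is silent.

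Markers of other cell types were mostly dark. Over leukocyte, endothelial, adipocyte, hepatocyte, neuronal and melanocyte lists, 13 of 63 genes passed (20.6%, against 49.8% of all genes). Of 13 leukocyte markers 4 passed, between 6.69 and 10.84, while PTPRC (6.46), CD3E (6.47), CD3D (6.50), MS4A1 (6.51) and TYROBP (6.43) did not pass. CD68, a lysosomal protein gene often used for macrophages, averaged 10.84 ± 0.11, CD14 7.68, CSF1R 6.84 and LYZ 6.69. Of 11 endothelial markers ESAM (9.23 ± 0.18), PECAM1 (7.03) and ROBO4 (6.77) passed, and CDH5 (6.37), VWF (6.43), KDR (6.47) and TEK (6.46) did not. Of 12 fibroblast markers ACTA2 (7.52), COL6A3 (6.91) and PDGFRB (6.76) passed, with COL1A1 (6.61), COL1A2 (6.47), COL3A1 (6.47), DCN (6.48), LUM (6.45) and POSTN (6.47) at background. LEP, leptin, averaged 7.74 with 6.52 at its other probe, and ALB, albumin, 7.0 with 6.49 at its other probe. GAD1 averaged 7.46 and SYN1 6.64, and of the melanocyte list MITF averaged 6.74 while MLANA (6.41), TYR (6.43) and PMEL (6.59) did not pass.

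The arrays varied little around these levels as deposited. Some deposited values recur exactly between arrays, such as TPT1 at 13.4749 on replicates 1 and 3. Quantile normalization over the 6 arrays left the number of genes above background at 9987. How far the processing of the deposited values set the small spread and near-equal array medians was not tested. The SD over the 6 arrays had a median of 0.068 for genes above background and 0.046 for those not above it, and 95% of genes above background had an SD of at most 0.128. An SD over 0.2 was seen for 21 of the 9987. The largest was that of CD55, a complement inhibitor at the cell surface, which ranged from 8.23 to 8.99 with a median of 8.49 (SD 0.32, n = 6). Its values were high on 2 arrays, 8.99 on replicate 2 and 8.98 on replicate 4, and between 8.23 and 8.56 on the others. YWHAE, a 14-3-3 protein gene (SD 0.29), was 9.0 on replicate 6 and 8.19 to 8.37 on the others. NBPF9 (SD 0.29) and NBPF10 (SD 0.28), close copies of a gene family, were lowest on replicate 5 at 9.0 and 9.33. RNY1, a small Y RNA (SD 0.26), was also lowest on replicate 5 at 7.60, as was SNAR-A1 (SD 0.22) at 7.05. CPSF2 (SD 0.28), LOC644936 (SD 0.25), HINT3 (SD 0.23), NSD1 (SD 0.22), ELMOD3 (SD 0.22) and TMEM267 (SD 0.21) completed the 12 most variable genes.

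**Figure D5:**
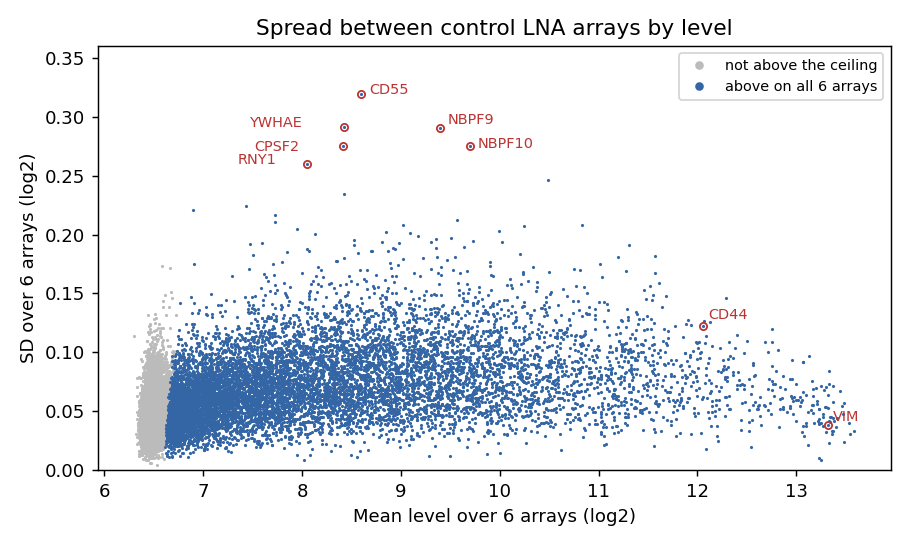
SD over the 6 arrays (vertical axis, log2) against mean level (horizontal axis, log2) for 20039 genes, blue where a gene passed the ceiling on all 6 arrays. The most variable genes, CD55 with an SD of 0.32 first, and the markers VIM (0.04) and CD44 (0.12) are circled.

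Limma called few probes as different between batches. Between 3 arrays of batch 2 and 3 of batch 1, limma called 1 of 23662 probes at a Benjamini-Hochberg adjusted p under 0.05 (0.00423%), and 611 probes (2.58%) had an unadjusted p under 0.05. The called probe, ILMN_3288717, has no gene name in the annotation and averaged 12.18 in batch 2 and 12.65 in batch 1 (difference -0.47, SE 0.075, adjusted p = 0.018 by limma). The median absolute difference over probes was 0.030. ESAM averaged 9.07 in batch 2 and 9.38 in batch 1, with an adjusted p of 0.75 by limma. A probe that was not called is not shown to be equal in both batches. In simulated data the same fit recovered 26% of differences of 0.2 and 82% of differences of 0.4. Besides the replicate number, batch was the only label that differed among the control arrays. Anything else that changed with batch cannot be told apart from it.

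Probes of 1 gene often disagreed, and every level above is that of the brightest. Of 4021 genes above background with more than 1 probe, 1944 (48.3%) had a dimmest probe whose mean was under the mean ceiling, and the median gap between brightest and dimmest probe was 0.91. Genes with 1 probe passed in 44.7% of 13348 cases, genes with 2 in 57.6% and genes with more in 64.7%. The largest gaps were those of SLC7A5P2 (13.21 and 6.49), RPSAP9 (13.38 and 6.68), ITIH5 (13.10 and 6.42), CLEC2D (13.12 and 6.44), RPL13AP3 (13.07 and 6.41) and LAIR1 (13.33 and 6.74). SLC7A5P2, RPSAP9 and RPL13AP3 are pseudogenes with expressed near-identical copies, so which copy their bright probes read is uncertain. LAIR1 and CLEC2D are receptors known from leukocytes, whose defining gene PTPRC was at 6.46. Among the 30 brightest genes 3 were pseudogenes.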

How the data were processed

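The authors deposited log2 values for each array, made with lumi per the submitters' processing notes. The lumi version, transformation, background correction and normalization were stated nowhere in the labels or headers, so how far low values are compressed is unknown. Of 48107 rows 784 had no value. By the platform annotation 30113 probes had 1 symbol, 8 had several and 17202 had none. Symbols were updated by gene ID (30074 probes) or accession (18) through the RefSeq table (GRCh38.p14), and 21 were kept. A gene's level is its brightest probe by mean over the 6 control LNA arrays, also for the olfactory receptor genes that set the ceiling. Batch was tested with limma 3.58.1 in R 4.3.3 (lmFit, eBayes with an intensity trend) on 23662 probes whose mean reached the median. Other values were computed with Python 3.11.15 and pandas 2.3.3. The scripts were tested on simulated data.

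The arrays and the 26 gene lists were chosen with earlier results of these data known. Named genes, of which not all are spelled out, are the 7 line markers, the 30 brightest genes and all members of the receptor and CDKN2A lists. To these come up to 8 brightest and 4 dimmest members of each other list, the 12 most variable genes and the 6 with the largest probe gap. Called probes of the batch fit, ACTB and GAPDH complete the set. Other named genes, and the chromosome neighbours, were chosen after their values were seen.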

Additional observations from a re-analysis of the deposited data

Results flagged for a closer look

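Among 329 of the genes named above, 16 had 1 array apart from the other 5 by Dixon's test at its 95% critical value. Chance gives this in about 5% of groups. Over all 9987 genes above background 459 (4.6%) had such an array, of which array 5 (batch 1) gave 141 and the others 49 to 79 each.

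Replicate 6 was apart for YWHAE (9.0, nearest other 8.37), ANXA1 (12.18, nearest 11.94), CDH3 (6.68, nearest 6.6) and FRA10AC1 (6.71, nearest 6.64), each above the others. Replicate 5 was apart below for CAV1 (12.17, nearest 12.35) and above for PLAUR (8.85, nearest 8.71), UBE2C (11.87, nearest 11.76) and SYN1 (6.75, nearest 6.63). Replicate 2 was apart below for EEF1A1 (13.52, nearest 13.6) and above for CD3D (6.55, nearest 6.5) and FGFR1 (6.58, nearest 6.46). Replicate 4 was above for TPT1 (13.53, nearest 13.49) and KRT15 (6.56, nearest 6.49). Replicate 3 was below for XBP1 (9.82, nearest 9.89) and OVOL1 (6.38, nearest 6.46), and replicate 1 below for RPLP2 (13.19, nearest 13.34).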

How the results depend on the processing

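The number of genes above background was 9235 to 10753 under the other settings run, against 9987 as reported, except with the ceiling set by markers of other cell types, where it was 5313. That ceiling rests on genes of which some are bright here, and under it 213 distinct list members passed in place of 322, with 6 luminal and 5 basal markers. It also left 6 receptor tyrosine kinases, 15 secreted factors, 20 transcription factors, 9 junction genes, 13 S100 and annexin genes, 2 leukocyte, 1 endothelial and 0 fibroblast, hepatocyte, neuronal and melanocyte markers. Small lists moved elsewhere too: melanocyte markers to 0 (99th percentile, or mean of probes) or 2 (array median as ceiling), neuronal to 1 (99th percentile, or mean of probes) and hepatocyte to 1 (mean of probes). The start tract, in the first form of its rule, was found at 27 ribosomal protein genes in place of 46, a setting compared after the data were seen. When all probes of a gene were averaged, the distance from the array median was 6.57 for VIM, 2.75 for CD44, 0.39 for EGFR, 0.37 for ERBB2 and 0.59 for KRT18, which is that setting's own construction, since it takes in the dim probes. Leaving out 1 array gave 10017 to 10061 genes above background. The batch count of 1 was 0 with probes above the ceiling only (572 probes at an unadjusted p under 0.05, limma) and 0 without the intensity trend (859), and 0 to 1 without 1 array, 0 without replicate 3, 4 or 5; the cause was not tested. No paired analysis was possible because the 6 arrays form 1 group and the batches share no replicate number.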
